A study of Homo sapiens with 9 samples.

Results

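The genes described here encode the stress sensors of the endoplasmic reticulum (ER) and the transcription factors they release. The list holds 10 genes, chosen by name: ERN1, ERN2, EIF2AK3, ATF6, ATF6B, XBP1, CREB3, CREB3L1, CREB3L2 and CREB3L3. Of these, 9 have a probe set (the group of probes whose signals are merged into 1 value) that names them alone, among 17958 genes analysed. ATF6B is named only on 2 probe sets that also name TNXB, so it has no value of its own here. RNA was taken 24 hours after transfection from HCT 116, an established line of human colorectal cancer cells. KL-FL cells received an expression vector for mouse full-length klotho, KL1 cells one for the mouse KL1 subdomain, and control cells the empty vector pcDNA3. Klotho is a single-pass membrane protein known as a co-receptor for FGF23, and KL1 is a piece of its extracellular part. Each group had 3 arrays, 9 in all, deposited as log2 expression values. Transfection was transient, and its reagent, JetPEI or polyethylenimine, is not given array by array. The title of the series names the unfolded protein response, and the comparisons below ask whether the RNA of its sensors differed between vectors.

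The unfolded protein response starts at proteins embedded in the ER membrane. ERN1 (IRE1 alpha), a kinase and RNase, cuts the XBP1 messenger so that an active transcription factor is made. EIF2AK3 (PERK), a kinase, phosphorylates the initiation factor EIF2S1 and thereby favours translation of ATF4. ATF6, ATF6B and the CREB3 family are transcription factors held in the membrane until the Golgi proteases MBTPS1 and MBTPS2 cut them free. ERN2 (IRE1 beta) is a relative of ERN1 that is largely restricted to mucus-making epithelium of gut and airway. These steps act on proteins or on splicing, which array values of total RNA do not show. Transcription of XBP1 is a known exception, since ATF6 acts on an ER stress element (ERSE) in its promoter.

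The promoter letters are shown because the ERSE is the element through which ATF6 is known to act on XBP1. RefSeq windows of 300 bases (GRCh38.p14, 250 before to 50 after a start site) were at hand for 9 of the 10 genes, all but ERN2. A match to ERSE, which is CCAAT and CCACG with 9 bases between them, on either strand, occurred in 1 of them, XBP1, and in 0.0769% of all 35116 windows. XBP1 and CREB3L2 have 2 windows each, and the ERSE lies in 1 of those of XBP1. HSPA5, the ER chaperone BiP, holds the same element, and HERPUD1, an ER-associated degradation protein, holds the related ERSE-II, ATTGG and CCACG with 1 base between them, which 0.0541% of windows hold. The elements in these promoters lie at chr22:28800603-28800621 and chr9:125241391-125241409 on the minus strand and at chr16:56932025-56932035 on the plus strand, with capitals on the fixed letters:
XBP1: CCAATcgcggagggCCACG
HSPA5: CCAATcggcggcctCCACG
HERPUD1: ATTGGgCCACG

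In XBP1 the element spans bases -52 to -34, and in HSPA5 bases -66 to -48, counted from the start site. The 250 bases before the XBP1 start (chr22:28800570-28800819, minus strand) have the ERSE in capitals:
XBP1 promoter: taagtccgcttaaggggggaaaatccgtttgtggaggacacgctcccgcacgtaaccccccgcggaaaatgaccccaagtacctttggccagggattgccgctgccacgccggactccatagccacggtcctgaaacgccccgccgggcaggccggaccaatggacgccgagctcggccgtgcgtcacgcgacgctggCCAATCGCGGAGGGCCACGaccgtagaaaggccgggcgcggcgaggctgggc

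EIF2AK3 and CREB3L2 are shown as well, since they were the members with the smallest p-values against control. The EIF2AK3 stretch (chr2:88627465-88627714, minus strand) has 4 matches to CCAAT in capitals, those on the other strand reading ATTGG, and no ERSE. CCAAT occurs in 34.6% of all windows. The CREB3L2 stretch (chr7:138002087-138002336, minus strand) holds the cyclic AMP response element TGACGTCA, in capitals, which 1.85% of windows hold:
EIF2AK3 promoter: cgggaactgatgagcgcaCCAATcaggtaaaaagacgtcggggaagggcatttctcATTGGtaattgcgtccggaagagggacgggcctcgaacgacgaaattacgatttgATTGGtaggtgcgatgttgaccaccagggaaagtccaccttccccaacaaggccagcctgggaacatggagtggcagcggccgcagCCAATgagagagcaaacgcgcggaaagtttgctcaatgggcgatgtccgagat
CREB3L2 promoter: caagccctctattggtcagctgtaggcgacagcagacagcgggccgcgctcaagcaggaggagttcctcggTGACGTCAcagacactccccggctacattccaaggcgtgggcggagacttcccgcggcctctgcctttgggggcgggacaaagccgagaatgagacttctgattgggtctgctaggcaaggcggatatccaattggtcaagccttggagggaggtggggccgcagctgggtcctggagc

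The half-element CCACG, which also forms the end of ERSE, occurred in windows of 4 of the genes, EIF2AK3, XBP1, CREB3 and CREB3L2, and in 38.1% of all windows. TGACGTGG, a core of the element that XBP1 protein binds, occurred in 0 of them and in 0.729% of all. The map of motif matches shows the positions in the first listed window of each gene. A match describes letters and is no evidence of binding in these cells.

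**Figure D1:**
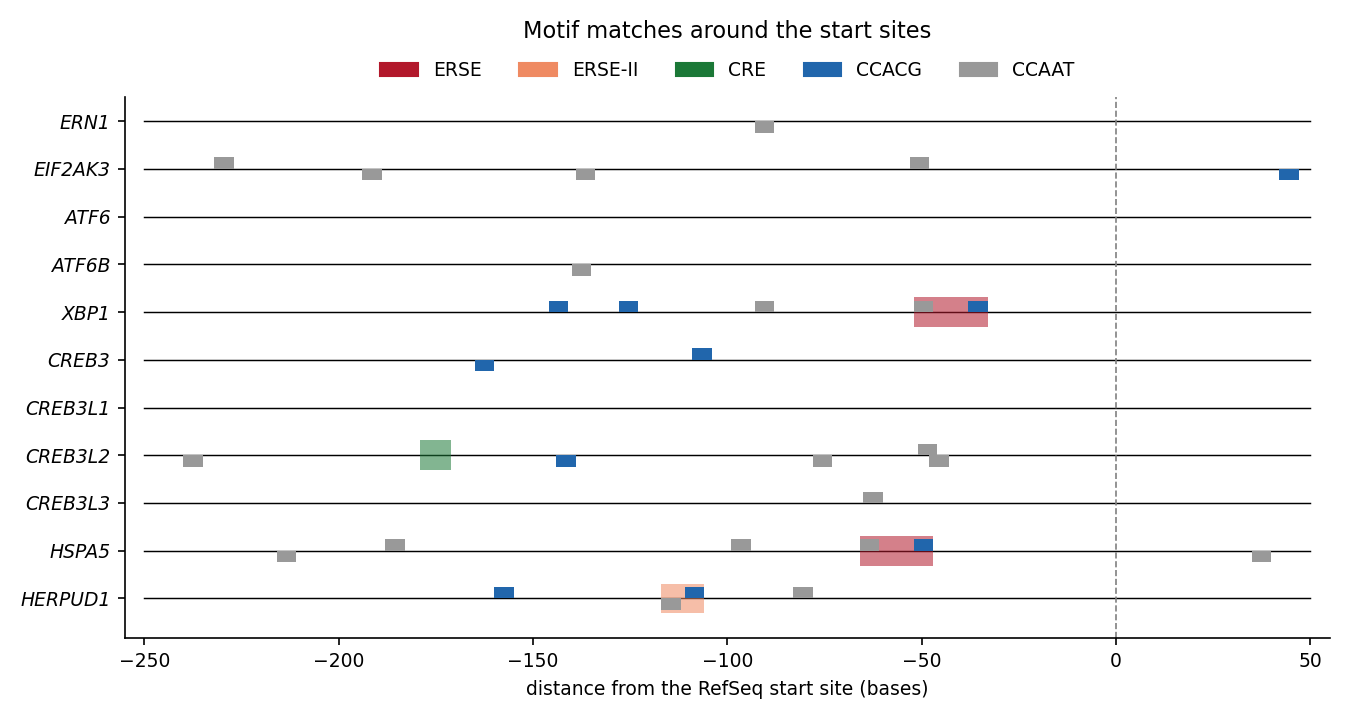
Motif matches in the RefSeq windows of 9 members, with HSPA5 and HERPUD1 below, by distance in bases from the start site (dashed line). For XBP1 and CREB3L2, which have 2 windows each, only the first listed is drawn. Marks above a line are matches on the strand of the gene and those below it matches on the opposite strand. XBP1 is the only member with an ERSE, at -52 to -34.

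Array medians over genes lay between 5.38 and 5.42. Nothing in the labels says that replicates came from separate cultures, and the p-values then cover array-to-array spread that may be technical. KL-FL replicate 3 stood apart: its correlations with the other 8 arrays had a median of 0.997, against 0.998 to 0.999 for those 8. Its deviations from its group mean had an SD over genes of 0.0936, against 0.0514 to 0.0785 on the other arrays. Human KL, whose probes were designed on the human gene and not on the mouse inserts, read 3.13 to 3.22 with KL-FL, 3.13 to 3.27 with KL1 and 3.03 to 3.06 in control, with adjusted p of 0.637 and 0.927 in limma, so it checks the labels weakly. Epithelial markers averaged 8.32 to 8.49 with KL-FL, 8.41 to 8.46 with KL1 and 8.44 to 8.46 in control, over 7 genes. The level differed widely within that list. Means over all arrays were 9.79 for EPCAM, 10.7 for KRT8 and 8.53 for CDH1, but 6.48 for CDX2. VIL1, of the same list, had a mean of only 3.77, at percentile 25.3 of all genes. Goblet cell markers averaged 3.72 to 3.77 on every array, markers of enterocytes and hepatocytes 3.94 to 4.04, of fibroblasts and endothelium 3.65 to 3.69, and of leukocytes 3.28 to 3.38. None of these 5 marker lists had a gene past the threshold in any comparison. An array value is summed over a culture, so a change in a few cells and a smaller change in all cells cannot be told apart.

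None of the 9 measured sensors and factors passed the threshold with either klotho vector. The test was limma across all genes, with Benjamini-Hochberg adjusted p under 0.05. With KL-FL 2 of 9, EIF2AK3 and CREB3L2, had an unadjusted p under 0.05, and with KL1 0 of 9 did, against 7.16% and 5.1% of all genes. Over all 17958 genes the adjusted threshold was passed by 0.00557% in each comparison with control, which is 1 gene, DDIT3. The members' median log2 difference was 0.025 for KL-FL minus control and 0.041 for KL1 minus control, and over all genes the medians were 0.0099 and 0.0026. The intervals allow only small differences in array signal. Across all 9 members the 95% intervals ran from 0.806-fold to 1.23-fold with KL-FL and from 0.857-fold to 1.28-fold with KL1. Each is for 1 gene alone and covers array-to-array spread that may be technical. ERN2, CREB3L1 and CREB3L3 had means over all arrays of 4.16, 4.24 and 4.78, below the array medians, and no detection call is given. For these members a narrow interval need not bound the change in RNA.

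EIF2AK3, the PERK kinase, was the member whose values lay above control on every klotho array. It read 6.62, 6.66 and 6.52 with KL-FL, 6.54, 6.57 and 6.54 with KL1, and 6.51, 6.48 and 6.42 in control. All 6 klotho arrays lay above all 3 controls, though the lowest KL-FL array was only slightly above the highest control. The log2 difference was 0.13 (SE 0.042), or 1.09-fold, with KL-FL and 0.078 (SE 0.042), or 1.06-fold, with KL1. In limma the unadjusted p was 0.0125 for KL-FL, with adjusted p = 0.688, and 0.0932 for KL1, with adjusted p = 0.927. With array weights, a fit that gave KL-FL replicate 1 a weight of 6.76 and KL-FL replicate 3 one of 0.265, the KL-FL difference passed at adjusted p = 0.0360. That fit called 523 of all 17958 genes for KL-FL, or 2.91%, against 1 without weights. It called 2 genes, or 0.0111%, for KL1, and 4, or 0.0223%, for the klotho groups pooled. Of all genes, 7.13% lay above control without overlap with KL-FL, 5.13% with KL1 and 2.2% with both klotho groups pooled.

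CREB3L2 (BBF2H7) was the other member whose KL-FL arrays all lay above every control. In mouse cartilage this membrane-bound factor drives genes of COPII vesicle transport such as SEC23A. Its values were 7.69, 7.63 and 7.73 with KL-FL, 7.63, 7.57 and 7.64 with KL1, and 7.55, 7.59 and 7.58 in control. The 3 KL-FL arrays lay above every control, while KL1 replicate 2 fell among the controls. The log2 difference was 0.11 (SE 0.035), or 1.08-fold, with KL-FL and 0.041 (SE 0.035) with KL1. Adjusted p was 0.688 and 0.929 in limma, and 0.0467 for KL-FL with array weights. SEC23A, named outside the naming rule, differed by -0.011 with KL-FL and -0.035 with KL1. It was among 6 targets of the CREB3 family listed, of which 4 and 3 lay above control, against 57.3% and 52.1% of all genes. Of the 6, 0 passed in either comparison, against 0.00557% of all genes.

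XBP1, the factor whose messenger IRE1 splices, had the largest difference of any member with KL1, and a wide spread. It read 8.09, 8.09 and 7.88 with KL-FL, 7.90, 8.07 and 8.26 with KL1, and 7.88, 7.90 and 8.0 in control. In each klotho group 1 array lay among the controls and the other arrays lay above them. The log2 difference was 0.096 (SE 0.091) with KL-FL and 0.15 (SE 0.091) with KL1, with 95% intervals of 0.926-fold to 1.23-fold and 0.964-fold to 1.28-fold. Adjusted p was 0.788 and 0.927 in limma. Without KL1 replicate 3 the KL1 difference was 0.060, and without KL1 replicate 1 it was 0.24. The annotation pairs this probe set with the unspliced and the spliced XBP1 transcript, so 1 value covers both.

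Both IRE1 genes overlapped with control in each klotho group. ERN1 read 6.18, 6.16 and 6.18 with KL-FL, 6.23, 6.18 and 6.19 with KL1, and 6.01, 6.16 and 6.24 in control. The controls spanned both klotho groups, and KL-FL differed from control by 0.038 (SE 0.052) and KL1 by 0.063 (SE 0.052) on the log2 scale. ERN2, the gut-restricted form, read 4.10, 4.24 and 4.10 with KL-FL, 4.14, 4.19 and 4.27 with KL1, and 4.12, 4.10 and 4.14 in control. It differed from control by 0.025 (SE 0.048) with KL-FL and by 0.079 (SE 0.048) with KL1, with adjusted p of 0.907 and 0.927 in limma. The table gives no detection call for any probe set, ERN2 included.

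ATF6 had nearly equal means in the 3 groups. Its values were 8.68, 8.68 and 8.57 with KL-FL, 8.65, 8.68 and 8.64 with KL1, and 8.67, 8.65 and 8.65 in control. The groups overlapped, and the log2 differences were -0.0073 (SE 0.036) and 0.0014 (SE 0.036), the first turning sign without KL-FL replicate 3 and the second without KL1 replicate 2, control replicate 2 or control replicate 3. The 95% interval was 0.941-fold to 1.05-fold for KL-FL and 0.946-fold to 1.06-fold for KL1. The 2 probe sets that name TNXB and ATF6B together differed by 0.056 and 0.050 for KL-FL minus control and by -0.011 and -0.013 for KL1 minus control, with adjusted p from 0.770 to 0.995 over all probe sets in limma.

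The remaining CREB3 family genes also overlapped with control. CREB3 (Luman) read 7.87, 7.94 and 7.46 with KL-FL, 7.96, 7.76 and 7.81 with KL1, and 7.83, 7.81 and 7.81 in control. KL-FL replicate 3 was the lowest of the 9 arrays by a wide margin, while the other KL-FL arrays lay above every control. The KL-FL difference was -0.059 (SE 0.11), and it was 0.089 without that array and -0.15 without KL-FL replicate 2. The KL1 difference was 0.029 (SE 0.11), and it was -0.029 without KL1 replicate 1. A second probe set, which names GBA2 and CREB3 together, differed by -0.034 for KL-FL and -0.11 for KL1.

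CREB3L1 (OASIS), best known from bone and secretory cells, read 4.18, 4.23 and 4.22 with KL-FL, 4.30, 4.26 and 4.28 with KL1, and 4.19, 4.30 and 4.23 in control. Both klotho groups overlapped with the controls, KL-FL differing by -0.031 (SE 0.036) and KL1 by 0.040 (SE 0.036). CREB3L3 (CREB-H), a factor of liver and small intestine, read 4.79, 4.82 and 4.77 with KL-FL, 4.79, 4.78 and 4.79 with KL1, and 4.81, 4.78 and 4.72 in control. Its differences were 0.020 (SE 0.032) and 0.013 (SE 0.032), and the first turns to -0.016 under quantile normalization.

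**Figure D2:**
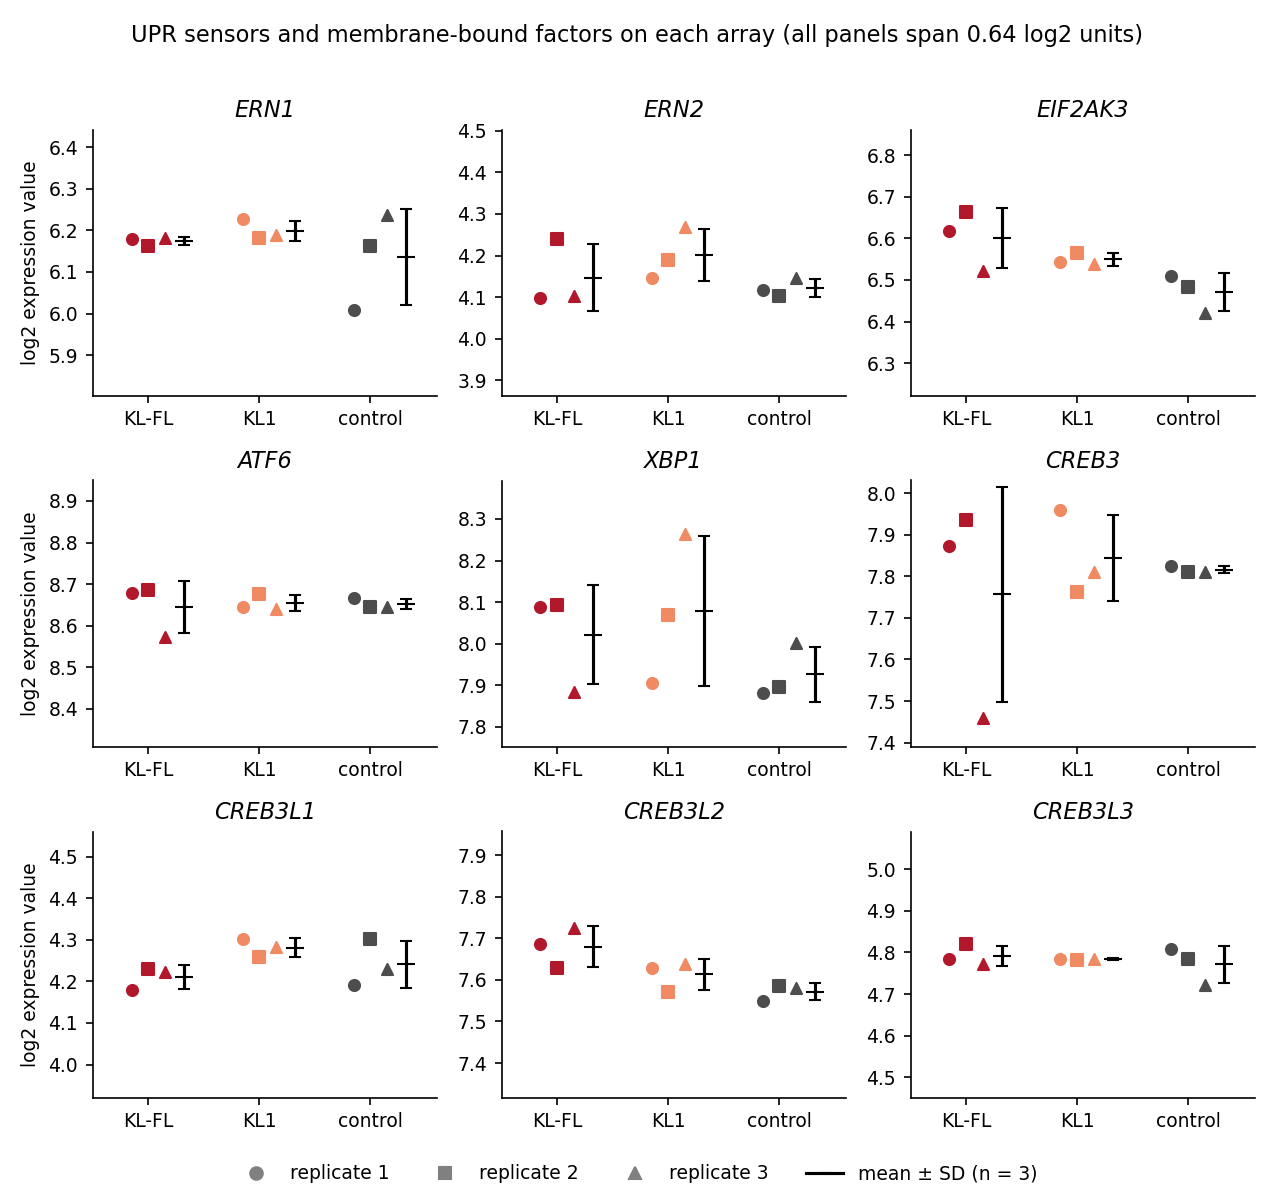
Log2 expression value of each measured member on the 9 arrays, by group, with the replicate number as the symbol and the group mean and SD (n = 3) in black. Every panel spans the same number of log2 units. EIF2AK3 lies above control on all 6 klotho arrays, and CREB3 has 1 low array, KL-FL replicate 3 at 7.46.

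In sign, 6 of the 9 members lay above control with KL-FL, and the share of all genes that did was 57.3%. With KL1 9 of 9 did, against 52.1% of all genes, and the smallest of these differences was that of ATF6 at 0.0014. These counts move with the scaling: under quantile normalization they were 4 and 9 of 9, and with arrays centred on their medians 6 and 8 of 9. Both comparisons use the same control arrays. With KL-FL the arrays of 2 of 9 members, EIF2AK3 and CREB3L2, lay apart from control, as did those of 10.4% of all genes, and 0 members lay apart below control, against 3.25%. With KL1 1 of 9 lay apart, EIF2AK3, against 9.47% of all genes, and 0 below control, against 4.34%.

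Pooling the klotho groups gave 0 of 9 members past the threshold in limma, and 2, EIF2AK3 and CREB3L2, at an unadjusted p under 0.05, where 6.6% of all genes reached it. The pooled difference of EIF2AK3 was 0.10 (SE 0.036) and that of CREB3L2 0.075 (SE 0.030), each with adjusted p = 0.748. XBP1 differed by 0.12 (SE 0.079, adjusted p = 0.805). EIF2AK3 was the 1 member of 9 whose 6 klotho arrays lay apart from control, against 3.56% of all genes, and 0 members lay apart below control, against 1.36%.

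Between the vectors, no member differed past the threshold. In limma 0 of 9 members passed, 0 had an unadjusted p under 0.05, and of all genes 0% passed and 5.05% had such a p. CREB3L1 was lower with KL-FL than with KL1 on every array, by -0.071 (SE 0.036, adjusted p = 0.855), and so was ERN1, by -0.024 (SE 0.052, adjusted p = 0.950). The gap between the nearest ERN1 arrays, 6.1809 with KL-FL and 6.1814 with KL1, was below the second decimal. Groups lay apart in this direction in 2.21% of all genes, in the other direction in 4.67%, where 0 members did, and in either in 6.88%. CREB3L2 differed by 0.067 (SE 0.035), with a 95% interval of 0.991-fold to 1.11-fold, and EIF2AK3 by 0.052 (SE 0.042), with 0.971-fold to 1.11-fold. XBP1 differed by -0.057 (SE 0.091), a value that was 0.035 without KL1 replicate 3 and 0.012 without KL-FL replicate 3. The intervals of all 9 members lay between 0.791-fold and 1.12-fold, which leaves room for differences of this size in either direction. The limit given above for ERN2, CREB3L1 and CREB3L3 holds for these intervals too.

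**Figure D3:**
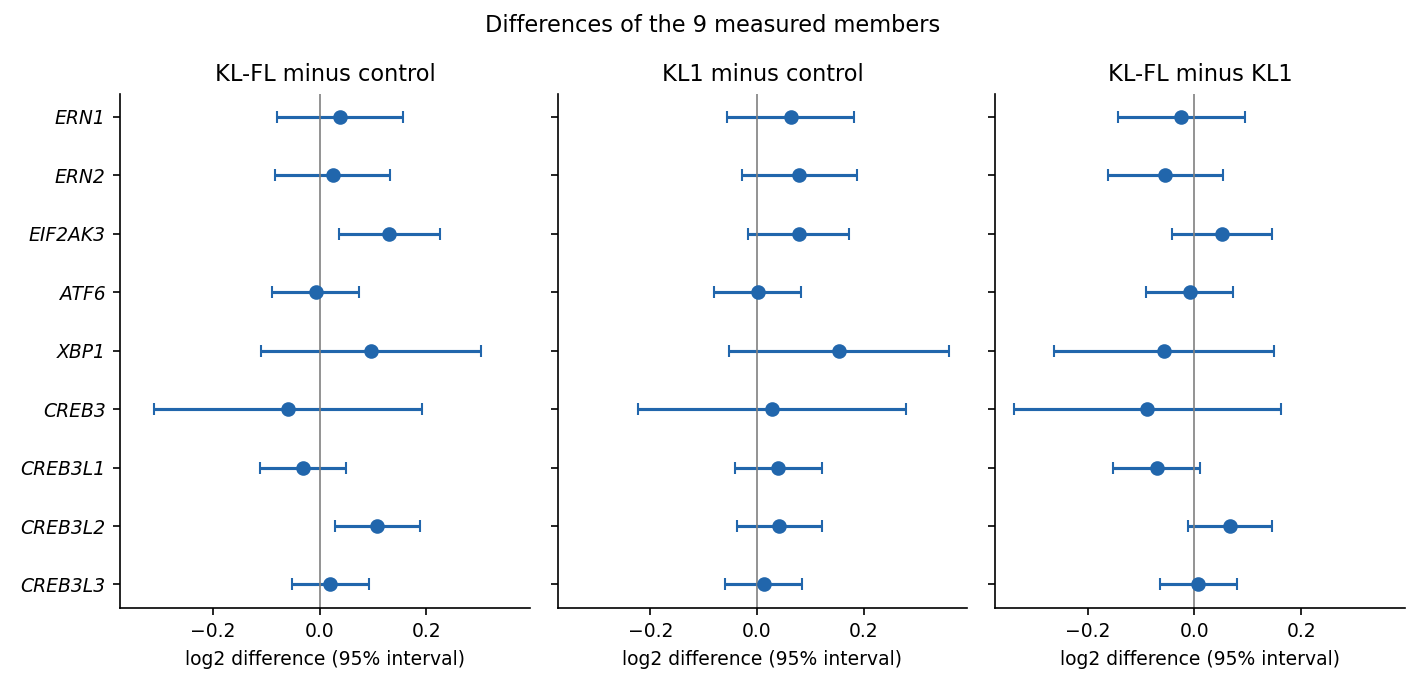
Log2 difference of each measured member in 3 comparisons, with 95% intervals from limma's moderated spread over all 9 arrays. The interval of EIF2AK3 and that of CREB3L2 lie above 0 for KL-FL minus control. CREB3 and XBP1 have the widest intervals.

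Over the 9 arrays left out in turn, the KL-FL difference of EIF2AK3 stayed between 0.099 and 0.17 and that of CREB3L2 between 0.086 and 0.13. The KL1 differences of these genes stayed between 0.053 and 0.098 and between 0.029 and 0.062. With KL-FL the difference of XBP1 ran from 0.060 to 0.16 and that of CREB3 from -0.15 to 0.089. ERN1 also turned sign, running from -0.025 without control replicate 1 to 0.088 without control replicate 3. KL-FL replicate 3 was the lowest of the 9 arrays in 2 of the 9 members, ATF6 and CREB3, and in 23.9% of all genes. Control replicate 1 was the lowest in 3, ERN1, XBP1 and CREB3L2, and in 11.0% of all genes.

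**Figure D4:**
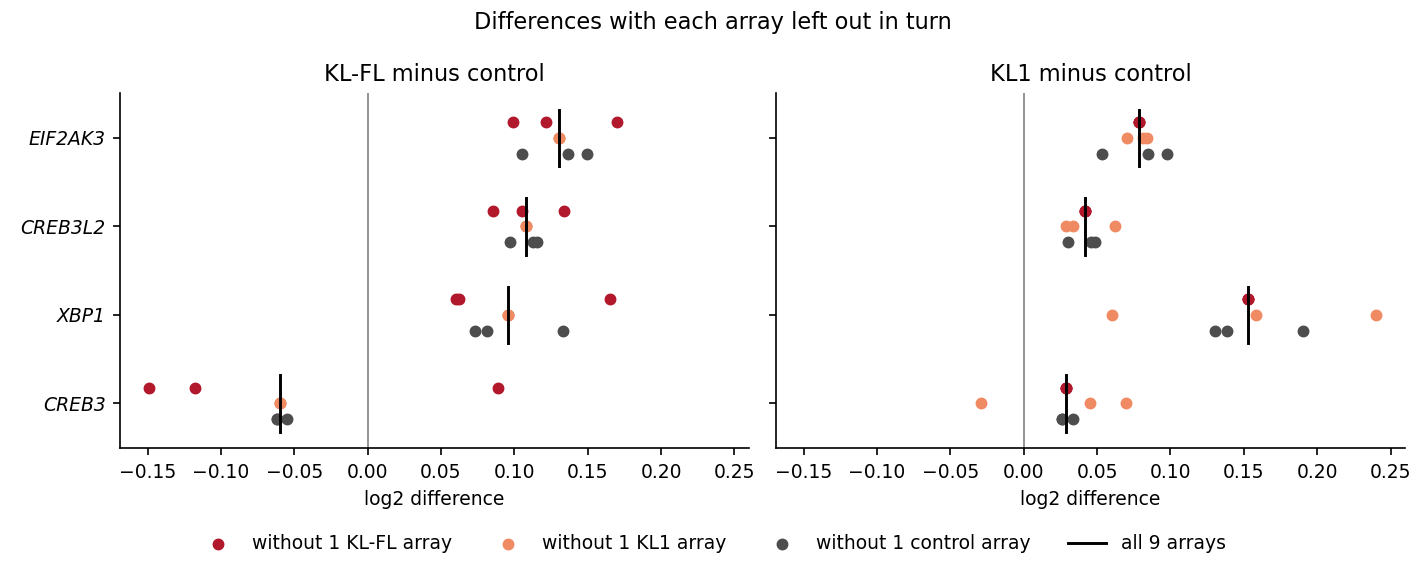
Log2 differences of EIF2AK3, CREB3L2, XBP1 and CREB3 from control, with all 9 arrays (black line) and with 1 array left out (points, coloured by the group of that array). The difference of CREB3 with KL-FL runs from -0.15 to 0.089, and those of EIF2AK3 and CREB3L2 keep their sign.

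The sensors' known relatives and partners gave no gene past the threshold in limma, which only 0.00557% of all genes passed in each comparison with control. EIF2AK1, the heme-regulated kinase of the same initiation factor, read 9.30, 9.36 and 9.29 with KL-FL, 9.34, 9.36 and 9.36 with KL1, and 9.40, 9.44 and 9.39 in control. Every klotho array lay below every control, as in 1.36% of all genes. The log2 differences were -0.092 (SE 0.031, adjusted p = 0.688) and -0.060 (SE 0.031, adjusted p = 0.927) in limma. The first passed with array weights, as did 2.91% of all genes. The viral RNA sensor EIF2AK2 differed by 0.089 and -0.023, and the amino acid sensor EIF2AK4 by -0.018 and -0.030, for KL-FL and KL1 in turn. CREB3L4, the CREB3 relative outside the list, differed by 0.057 and 0.070, and ATF4 by -0.098 and -0.045. Of 12 measured genes that process, restrain or act downstream of the sensors, 4 lay above control with KL-FL and 5 with KL1. Among all genes, 57.3% and 52.1% did. Of these 12 listed genes, 0 passed, against the same 0.00557% of all genes. SYVN1, the ubiquitin ligase HRD1, had the smallest p among them, with 0.13 (SE 0.058) with KL-FL and 0.10 (SE 0.058) with KL1. The proteases that release ATF6 and the CREB3 family, named outside the naming rule, differed by -0.024 and -0.024 for MBTPS1 and by -0.00092 and 0.0094 for MBTPS2.

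Targets of ATF6 and of XBP1 had larger median differences than the sensors and factors. The lists were chosen with earlier results of these data known, so this contrast is a description and no test. Of 10 listed ATF6 targets, all measured, 10 lay above control with KL-FL and 10 with KL1, with median log2 differences of 0.18 and 0.22, and 0 passed the threshold in limma. The shares of all genes above control were 57.3% and 52.1%, and 0.00557% passed the threshold in each comparison. At an unadjusted p under 0.05 in limma there were 7 and 8 of these targets, all higher, against 7.16% and 5.1% of all genes. The count above control was 10 in every alternative run for these comparisons. Alternatives that alter only the spread or the set of genes tested leave the differences unchanged, so the count could not move there. With array weights 7 of them passed for KL-FL, among 523 calls over all genes, and 1 for KL1, among 2. SEL1L, which anchors the degradation complex of SYVN1, read 7.61, 7.58 and 7.63 with KL-FL, 7.70, 7.64 and 7.85 with KL1, and 7.29, 7.39 and 7.42 in control. It differed by 0.24 (SE 0.056) with KL-FL and 0.36 (SE 0.056) with KL1, with adjusted p of 0.567 and 0.478. HERPUD1, the gene with the ERSE-II shown above, differed by 0.45 and 0.50, and HSPA5, which shares the ERSE with XBP1, by 0.23 and 0.28, none past the threshold. How far an element in a promoter bears on these values was not tested.

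Of 10 XBP1 targets, 10 lay above control with KL-FL and 9 with KL1, against 57.3% and 52.1% of all genes. Their medians were 0.14 and 0.13, and 0 passed the threshold, against 0.00557% of all genes. Over the alternatives the counts above control ran from 9 to 10 and from 7 to 9. EDEM1, which hands misfolded glycoproteins to degradation, read 5.62, 5.64 and 5.78 with KL-FL, 5.66, 5.46 and 5.37 with KL1, and 5.28, 5.38 and 5.36 in control. All KL-FL arrays were above control, while the lowest KL1 array was among the controls, and the differences were 0.34 (SE 0.075) and 0.16 (SE 0.075). SSR1, a subunit of the translocon-associated complex, differed by 0.12 (SE 0.036) with KL-FL and 0.029 (SE 0.036) with KL1. The difference between the vectors was 0.18 for EDEM1 and 0.094 for SSR1, each with adjusted p = 0.855 in limma. DNAJC3 and DNAJB11 differed from control by 0.30 and 0.31 with KL-FL and by 0.26 and 0.26 with KL1. Between the vectors they differed by 0.037 and 0.045. Of the 10 XBP1 targets, 6 were higher with KL-FL than with KL1 and 4 were lower.

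Among 8 listed targets of PERK and ATF4, DDIT3 passed. DDIT3, which encodes the stress factor CHOP, rose to 7.27, 7.48 and 7.23 with KL-FL and to 7.45, 7.47 and 7.48 with KL1, against 6.67, 6.66 and 6.72 in control. The log2 difference was 0.65 (SE 0.059) with KL-FL, adjusted p = 0.0348 in limma, and 0.78 (SE 0.059) with KL1, adjusted p = 0.00687. With the replicate number as a block the adjusted p was 0.226 and 0.0611 in limma, which ended both calls. The differences stayed 0.65 and 0.78 there, with SE 0.060. Against control the pooled klotho groups passed at adjusted p = 0.00442 in limma, and at 0.0428 with the block. The list had 7 of 8 genes above control with KL-FL and 6 with KL1, against 57.3% and 52.1% of all genes. Its medians were 0.083 and 0.080. At an unadjusted p under 0.05 in limma there were 3 of the 8 in each comparison, against 7.16% and 5.1% of all genes. Of 6 transcripts known to be cut by IRE1 itself, 3 lay above control with KL-FL and 1 with KL1, against the same 57.3% and 52.1%. Their medians were -0.0017 and -0.037, with 0 past the threshold. PDGFRB, a growth factor receptor, had the smallest p of them and lay above control on every klotho array, as did 2.2% of all genes. It differed by 0.084 (SE 0.032) and 0.083 (SE 0.032), with adjusted p of 0.688 and 0.927 in limma. Its level was low, with a mean of 3.52 at percentile 20.8 of all genes, and it is also among the fibroblast and endothelium markers above. BLOC1S1, the best known of these IRE1 substrates, differed by -0.15 (SE 0.096) and -0.050 (SE 0.096). The CREB3 family targets had 4 and 3 of 6 above control, against 57.3% and 52.1% of all genes, and medians of 0.061 and 0.014. In all, 1 of 57 such pathway genes passed in each comparison with control, against 0.00557% of all genes. Between the vectors 0 passed, against 0% of all genes.

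**Figure D5:**
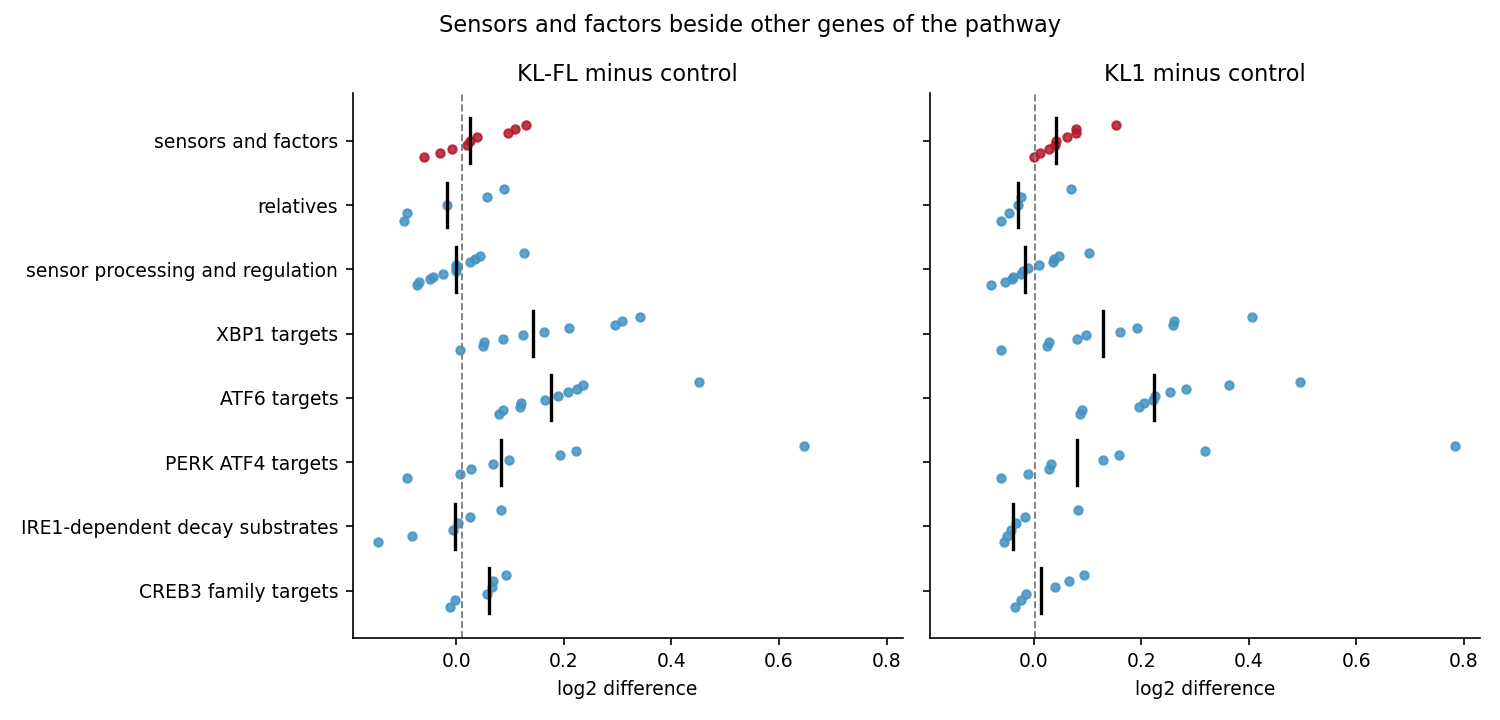
Log2 differences from control of the 9 measured sensors and factors (red) and of other genes of the pathway by list (blue), each point a gene, with the list median as a black line and the median of all genes dashed. ATF6 targets lie to the right of 0 in both panels, with medians of 0.18 and 0.22, and the sensors and factors have medians of 0.025 and 0.041. The lists were chosen with earlier results of these data known.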

How the data were processed

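Total RNA, 100 ng per array, was labelled for whole-transcript arrays, per the labels' protocols. The authors deposited log2 expression values for 33297 probe sets, and Partek 6.6 is named per the submitters' processing notes. How the signals were background-corrected, normalized and summarised is not given in the sources used here. That they are log2 was judged from their range. Probe sets were named through the platform annotation: 19181 name 1 gene, 2055 several and 12061 are unnamed here. For each gene the probe set with the highest mean stood for it, which gave 17958 genes. Values were used as deposited, with no filter.

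Group means over all 9 arrays were fitted without covariates (limma 3.58.1, R 4.3.3) and their differences tested two-sided with moderated variances. The threshold was a Benjamini-Hochberg adjusted p of 0.05 across the 17958 genes. Intervals use the moderated spread with 8.88 degrees of freedom. The fit was tested on simulated data.

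The members and lists were chosen with earlier results of these data known. Besides members, up to 4 genes per list with the smallest p are named, and all relatives. TRAF2 was not analysed here. The labels number the replicates but do not say that equal numbers belong together. Same-numbered arrays of control and KL1 had deviations from their group means that correlated at 0.113, 0.322 and 0.186. Same-numbered arrays with KL-FL reached at most 0.0974. Arrays of different number were not set beside these, so a pairing was not tested. Alternatives covered normalization, centring, probe sets, dim genes, samples in the fit, variance model, array weights, the replicate block and each array left out. The precision is limited by the number of arrays. Promoter windows are RefSeq's on GRCh38.p14, read with Python 3.11.15.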

Additional observations from a re-analysis of the deposited data

How the results depend on the processing

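Across 699 member values under the alternatives, 2 passed the threshold and 45 changed sign, 17 of them outside the fits that left out an array. Many of the 699 could not change sign. Only quantile normalization, centring, array weights and leaving out an array of a compared group could move a member's difference. The other settings could change at most its p-value, so the 699 are no measure of stable signs. Both passes were with array weights, where EIF2AK3 and CREB3L2 made 2 members called for KL-FL minus control, against 0 otherwise. The pathway genes called then numbered 14 for KL-FL, 2 for KL1 and 3 for the pooled groups, against 1 each. Over all genes the same fits called 523, 2 and 4 (2.91%, 0.0111% and 0.0223%), against 1 each. For KL-FL this count was 0 with every probe set tested, with only the groups compared, with the variance of each gene alone and with the replicate block. For KL1 it was 0 with every probe set, the variance of each gene alone and the replicate block, and for the pooled groups 0 with the variance of each gene alone. The pooled comparison was not run on the compared groups alone, since it uses all arrays. Leaving out each array in turn gave 0 to 1 pathway genes for KL-FL and for KL1, 0 to 2 for the pooled groups, and 0 members throughout. The replicate block ended the DDIT3 calls for KL-FL and KL1 and changed no other call among members and pathway genes.

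Signs turned as follows, and the cause was not tested. Under quantile normalization ERN2 was at -0.012 and CREB3L3 at -0.016 for KL-FL minus control, CREB3L3 at -0.027 for KL-FL minus KL1, and ATF6 at 0.0025, CREB3L1 at -0.016 and CREB3L3 at -0.0028 for the pooled groups. With centred arrays ATF6 was at -0.0031 for KL1 and CREB3L1 at -0.0015 for the pooled groups. With array weights ERN2, ATF6 and CREB3 were at -0.015, 0.024 and 0.048 for KL-FL, and ATF6 at -0.0011 for KL1. Between the vectors ATF6 and CREB3 were at 0.025 and 0.014, and for the pooled groups ATF6, CREB3 and CREB3L1 at 0.011, 0.041 and -0.014.

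With arrays left out, ATF6 ran from -0.027 to 0.029 for KL-FL, -0.010 to 0.0086 for KL1, -0.028 to 0.027 between the vectors and -0.013 to 0.015 pooled. CREB3 ran from -0.15 to 0.089, -0.029 to 0.070, -0.18 to 0.060 and -0.060 to 0.059 in the same order. ERN1 ran from -0.025 to 0.088 for KL-FL, -0.00083 to 0.11 for KL1 and -0.013 to 0.10 pooled, the lowest each time without control replicate 1. CREB3L3 ran from -0.0046 to 0.039, -0.012 to 0.031, -0.0061 to 0.018 and -0.0084 to 0.035. ERN2 ran from -0.022 to 0.050 for KL-FL, CREB3L1 from -0.021 to 0.035 pooled and XBP1 from -0.14 to 0.035 between the vectors. Genes below the 50th percentile include ERN2, CREB3L1 and CREB3L3, so 6 members were tested there.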

Other observations

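Many genes had exactly the same deposited value on more than 1 array. This held for 12305 of 17958 genes, or 68.5%, and 4219 genes had 6 or fewer distinct values over the 9 arrays. All 3 arrays of a group were identical in 393 genes with KL-FL, 498 with KL1 and 556 in control, and 9 genes had 1 value on all 9 arrays. Among the members, ATF6 read 8.65 (8.64537 as deposited) on KL1 replicate 1, control replicate 2 and control replicate 3. CREB3 read 7.81106 on KL1 replicate 3 and control replicates 2 and 3, and CREB3L3 read 4.78531 on KL-FL replicate 1 and KL1 replicates 1 and 3. The SD of CREB3L3 with KL1, 0.0017, and that of CREB3 in control, 0.0082, rest in part on such repeats. ERN1, EIF2AK3, XBP1 and CREB3L2 had 9 distinct values each.

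CREB3 and XBP1 had the widest ranges over the 9 arrays, 0.50 and 0.38 on the log2 scale. The genes most like CREB3 over the 9 arrays were DEDD2, UTP4 and MRPS35, with Pearson correlations of 0.987, 0.984 and 0.984, and of 0.934, 0.918 and 0.916 over the 8 arrays without KL-FL replicate 3. Those most like XBP1 were PDSS1, ELFN1 and DNTT, with 0.937, 0.923 and 0.910, and with 0.892, 0.847 and 0.797 over the 8 arrays without KL1 replicate 3. These are the highest of 17957 correlations each, and arrays share groups, so they are given as a description with no test.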
